A study of Drosophila melanogaster with 23 samples.

Results

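The 10 heat shock genes described here are Hsp22, Hsp23, Hsp26, Hsp27, Hsp68, Hsp70Aa, Hsp70Ba, Hsp83, Hsc70-3 and Hsc70-4, chosen by FlyBase symbol from the 17606 genes of the deposited count table. Heat shock proteins are chaperones, which bind unfolded proteins and help them fold or keep them from clumping. In flies the small heat shock proteins, Hsp68 and the Hsp70 copies are switched on by the heat shock factor Hsf when proteins unfold, and some of the small heat shock genes also respond to the moulting hormone ecdysone in unstressed animals. Hsp83 (the fly Hsp90) and the cognates Hsc70-3 and Hsc70-4 are made at high levels without stress. Below, the inducible genes are the small heat shock genes, Hsp68 and the Hsp70 copies. That name says nothing on how Hsp83 responds to heat. Hsc70-3, also known as BiP, works in the endoplasmic reticulum (ER), and Hsc70-4 in the cytosol.

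RNA was measured in pools of whole Drosophila melanogaster larvae of stage L1, males and females together, from crosses at 25 °C, and no label names a heat shock. There were 23 libraries in 6 genotypes, and the series asks how Set2 and lysine K36 of histone H3 act on gene expression. The stock yw (3 libraries) was the comparison for Set21 (4 libraries), a mutant of Set2, the enzyme that trimethylates that lysine. The other 4 genotypes carried designed histone genes and had 4 libraries each. The histone control was H3.3CtrlH3.2HWT. The genotype H3.3K36RH3.2HWT (below, H3.3K36R) had arginine in place of lysine at that residue of the variant histone H3.3 only. The genotype H3.3K36RH3.2K36R (below, combined K36R) had the change in H3.3 and in the replication-coupled H3.2. The genotype H3.3CtrlH4K16R (below, H4K16R) had an arginine in place of the H4 lysine that is acetylated in dosage compensation. The labels do not spell out the alleles and transgenes behind these names. They also do not say whether replicates were separate cultures, and all p-values here therefore rest on a spread between samples that may be technical in part.

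Library totals ran from 111138070 to 157973821 counts. Levels are CPM, counts scaled to a common library size by TMM normalization. A difference was called where edgeR's quasi-likelihood test gave a Benjamini-Hochberg adjusted p below 0.05 over all 14365 genes tested. Set2 itself read 4.97 to 7.69 CPM in the Set2 mutant and 70.4 to 82.4 CPM in yw. Markers of other tissues moved with the genotypes. The 6 Osiris genes listed as markers of cuticle-forming epidermis summed to 330 to 3887 CPM in the Set2 mutant against 4.13 to 15.8 CPM in yw, and to 1856 CPM in H4K16R replicate 3 against 4.275 to 5.004 CPM in the other H4K16R libraries. None of the 6 was at 0 in any library. The 4 fat body markers summed to 2456 to 3758 CPM in combined K36R against 7682 to 9696 CPM in the histone control. In whole-larva RNA, fewer cells of a type and less RNA per cell cannot be told apart.

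Of the 10 genes, 9 passed the filter on low counts and were tested. Hsp22, a small heat shock gene of the cluster on arm 3L (9372931 to 9374964 in the BDGP6.54 annotation), was listed at 0 in all 23 libraries. All 1900 of its annotated exon bases lie within exons of CG4456 (Hsp67Bb) on the same strand, and how the authors' counting treated shared bases is not given in the sources used here. No level of Hsp22 is therefore given.

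The 3 measured small heat shock genes sit in the same 3L cluster: Hsp26 at 9376418 to 9377427 on the minus strand, Hsp23 at 9381882 to 9382765 and Hsp27 at 9384063 to 9385694 on the plus strand. Hsp68 lies on arm 3R at 24055080 to 24057310. Hsp70Aa (3R, 11954163 to 11956544) and Hsp70Ba (3R, 12465453 to 12467776) are copies of a near-identical family, so how reads were split among the copies is uncertain. Hsp83 lies on 3L at 3192969 to 3197059, Hsc70-4 on 3R at 15242687 to 15246614, and Hsc70-3 is the only gene of the group on the X, at 11801696 to 11807117.

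Per kilobase of exon, the 3 chaperones made without stress were far above the inducible genes. In the histone control the level was 1169 ± 114 CPM per kb for Hsc70-4, 322 ± 129 for Hsp83 and 257 ± 74.0 for Hsc70-3 (SD, n = 4). Hsp83 and Hsc70-3 did not differ beyond their spread. Among the inducible genes Hsp68 led at 14.1 ± 0.81 CPM per kb, followed by Hsp23 at 8.82 ± 1.48, Hsp26 at 6.83 ± 1.06 and Hsp27 at 4.601 ± 0.370. The levels of Hsp23 and Hsp26 ran into each other's spread. Hsp70Aa, at 0.297 ± 0.073, and Hsp70Ba, at 0.177 ± 0.057 CPM per kb, were the lowest, on 39 to 112 counts a library in the control.

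Replicates of a genotype were uneven for most of these genes. The SD of log2 CPM within groups was 0.757 for Hsp70Aa, 0.618 for Hsp83, 0.600 for Hsp26, 0.585 for Hsp70Ba, 0.511 for Hsp23 and 0.445 for Hsc70-3, against a median of 0.260 over all genes tested. Hsc70-4 was the steadiest, with an SD of 0.159. The widest spread among the small heat shock genes was in yw itself. Replicate 4 was the lowest yw library for all 9 tested genes. It read 6.59 CPM against 30.3 and 24.4 CPM in replicates 2 and 3 for Hsp23, and 2508 against 3350 and 2679 CPM for Hsc70-4.

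The comparison of the Set2 mutant with yw addresses what depends on Set2 in the larva. Of the 6 measured stress-inducible genes 4 fell, and both cognates rose. Hsp70Aa fell about 16.8-fold, Hsp70Ba 11.2-fold, Hsp23 6.27-fold and Hsp26 3.03-fold, while Hsc70-3 rose 1.88-fold and Hsc70-4 1.38-fold. In all, 6 of the 9 genes were called, 4 lower and 2 higher, where 44.5% of all genes tested were called (23.4% higher and 21.1% lower). The libraries of the 2 groups did not overlap for 5 of the 9, against 46% of all genes tested.

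Hsp23 binds unfolding proteins as a small, ATP-independent chaperone. It read 30.3, 24.4 and 6.59 CPM in yw replicates 2, 3 and 4, and 2.81, 2.96, 4.25 and 2.99 CPM in Set2 mutant replicates 1 to 4. All 4 mutant libraries lay below all yw libraries, and also below every library of the 4 histone genotypes, where the lowest was 5.53 CPM. The log2 fold change was -2.65 ± 0.35 (SE; edgeR adjusted p = 1.2e-05). Hsp26, another small heat shock chaperone of the cluster, read 19.6, 20.9 and 3.18 CPM in yw and 5.68, 3.96, 5.39 and 4.24 CPM in the mutant. Here the groups overlapped, because yw replicate 4 was lower than every mutant library. The fitted change was -1.60 ± 0.39 (edgeR adjusted p = 0.0027). Hsp27, the third member of the cluster, did not follow them: it read 6.12, 10.3 and 4.50 CPM in yw and 6.49 to 7.06 CPM in the mutant, a log2 fold change of -0.04 with a 95% interval of -0.49 to 0.41.

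Hsp70Aa, an inducible Hsp70 that refolds proteins with ATP, read 2.27, 1.60 and 0.325 CPM in yw and 0.0155, 0.111, 0.130 and 0.0717 CPM in the mutant. The mutant values stand on 2, 16, 17 and 9 counts. All 4 were below every library of the other 5 genotypes. The log2 fold change was -4.07 ± 0.56 (edgeR adjusted p = 1.5e-05). Hsp70Ba showed the same order, at 0.841, 0.959 and 0.424 CPM in yw against 0.0309, 0.0139, 0.0841 and 0.135 CPM in the mutant (-3.48 ± 0.50, edgeR adjusted p = 2.1e-05). Since reads of the copies may have been swapped, the 6 Hsp70 copies were also summed, and the sum was lower as well (-2.93 ± 0.38, edgeR adjusted p = 1.14e-05). Hsp68, a further inducible Hsp70-class gene, read 36.1, 25.2 and 18.3 CPM in yw and 13.8, 21.6, 16.8 and 28.7 CPM in the mutant. These groups overlapped and it was not called (-0.39, 95% interval -0.90 to 0.11).

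**Figure D1:**
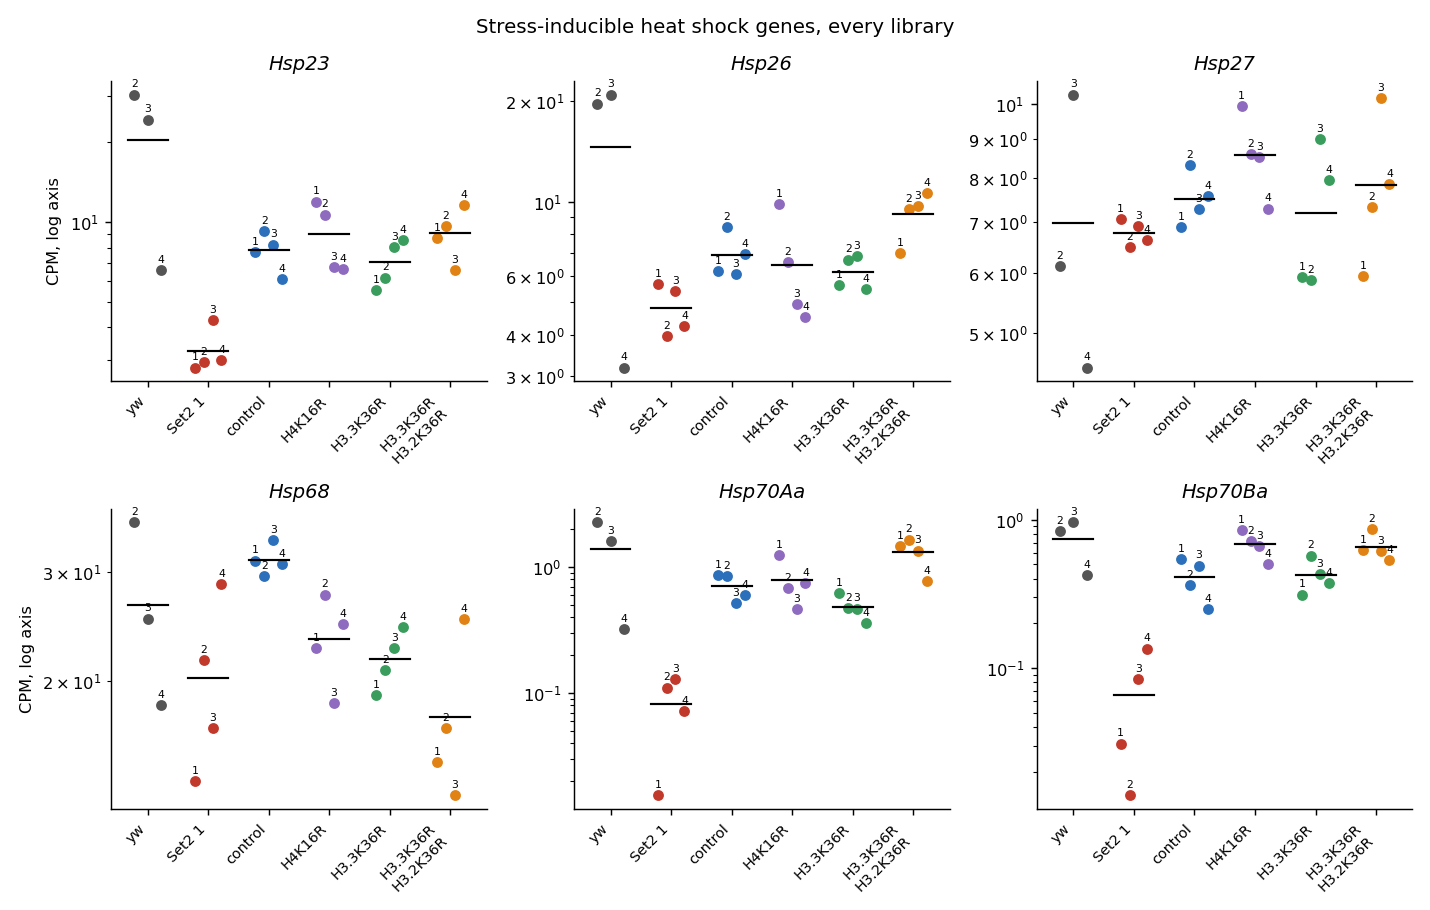
Level of the 6 measured stress-inducible genes (CPM, log axis) in each library by genotype; points are libraries with their replicate number and bars are group means. Set2 1 is the Set2 mutant, and its 4 libraries are the lowest of all for Hsp23, Hsp70Aa and Hsp70Ba.

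Both cognates moved the other way in the Set2 mutant. Hsc70-3 read 1224, 919 and 830 CPM in yw and 2205, 1758, 1600 and 1911 CPM in the mutant, with no overlap. Its log2 fold change was 0.91 ± 0.33 (edgeR adjusted p = 0.0305). That call was lost without yw replicate 3 (0.86, adjusted p = 0.0927), yw replicate 4 (0.79, 0.118) or mutant replicate 1 (0.84, 0.0564). Hsc70-4 read 3350, 2679 and 2508 CPM in yw and 4207, 4642, 3513 and 3393 CPM in the mutant, a rise of 0.47 ± 0.12 on the log2 scale (edgeR adjusted p = 0.00418). Every mutant library was above every yw library. Hsp83, which holds kinases and nuclear receptors ready for activation, read 2147, 864 and 767 CPM in yw and 2172, 2703, 1325 and 1426 CPM in the mutant. It overlapped and was not called, at 0.60 with a 95% interval of -0.38 to 1.58. With a library left out it ran from 0.33, without yw replicate 4, to 1.24, without yw replicate 2 (adjusted p = 0.0535).

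The Osiris markers were called higher for 6 of 6 genes in this comparison, and summed to 3887, 1278, 753 and 330 CPM in mutant replicates 1 to 4. The 4 neuron markers, all called lower, summed to 412 to 851 CPM in the mutant against 1149 to 1256 CPM in yw, and the 3 glia markers, also all lower, to 430 to 592 against 840 to 933 CPM. Fat body markers summed to 7354 to 9769 against 10190 to 13810 CPM, with 2 of 4 called lower and none higher. They summed to 7682 to 9696 CPM in the histone control, where 2 of 4 were likewise called lower against yw and none higher. Midgut markers in the Set2 mutant also had 2 of 4 lower and none higher, with overlapping sums (1631 to 3508 against 2576 to 3853 CPM). Their part in the heat shock results was not tested.

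Wider lists held 77 further genes, of which 75 were tested. Most were chaperones and their partners, but 5 were heat shock regulators and 13 were ecdysone-response genes. The ER list also held stress sensors and transcription factors. In the Set2 mutant 32 of the 75 were higher and 12 lower, where 23.4% of all genes tested were higher and 21.1% lower. The median log2 fold change of the 75 was 0.31 against 0.02 over all genes tested. Of the 12 lower, 5 were ecdysone-response genes and 2 were regulators. All 8 subunits of the TRiC chaperonin, which folds actin and tubulin, were higher (median 0.92), with CCT5 at 1.02 ± 0.26 and CCT2 at 1.00 ± 0.24. Of 12 co-chaperones of Hsp70 and Hsp90, 8 were higher and none lower. They included Fkbp59 at 0.97 ± 0.21, an Hsp90-binding immunophilin, and Stip1 at 0.92 ± 0.30, which links Hsp70 to Hsp90. The Hsp90 relatives of the ER and mitochondria, Gp93 (1.05 ± 0.29) and Trap1 (0.75 ± 0.16), were both higher. In the ER list 5 of 13 were higher, led by the protein disulphide isomerases CaBP1 (1.26 ± 0.33) and ERp60 (1.16 ± 0.31), and 1 was lower, the stress sensor Ire1 (-0.36 ± 0.08). Mitochondrial chaperones had 4 of 8 higher, among them Hsp60A (0.96 ± 0.29) and Roe1 (0.94 ± 0.19). The 1 lower gene, CG9920, had 0 to 1 counts a library in the mutant and 4 to 13 in yw. Of the 4 other Hsp70-class genes, Hsp110 (0.79 ± 0.25), which recharges Hsp70, and the mitochondrial Hsc70-5 (0.73 ± 0.19) were higher and Hsc70-1 was lower (-1.08 ± 0.38).

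Of the 6 Hsp70 copies 4 were called lower (Hsp70Ab at -3.44 ± 0.53 and Hsp70Bb at -1.98 ± 0.42 beside the pair above) and none higher. The 2 not called were Hsp70Bbb, with 0 to 2 counts a library in both genotypes, and Hsp70Bc, with 17 to 24 counts in yw and 0 to 16 in the mutant. The 3 tested neighbours in the 3L cluster and the 4 tested alpha-crystallin genes elsewhere had no call. Hsf, which encodes the factor that switches on the inducible genes, was at 0.05 ± 0.06 and not called (edgeR adjusted p = 0.545). The noncoding RNA lncRNA:Hsromega, a classic heat shock transcript, was lower by -1.02 ± 0.23 in log2 units (edgeR adjusted p = 0.00124). DnaJ-1, the heat-inducible Hsp40 that assists Hsp70, was not called at -0.05 ± 0.18. Of 13 ecdysone-response genes, 3 were higher, a share close to the 23.4% of all genes tested, and 5 were lower, against 21.1% of all. The largest changes were those of Hr4 (2.86 ± 0.84) and E23 (0.78 ± 0.17) among the rises and of br (-0.97 ± 0.25) and ftz-f1 (-0.94 ± 0.21) among the falls.

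Combined K36R against the histone control addresses what depends on the lysine of H3.2 and H3.3 together. Here the chaperones made without stress fell, and the small heat shock genes, Hsp70Aa and Hsp70Ba were not called. Hsp83 fell 3.42-fold, Hsc70-3 2.76-fold, Hsp68 1.80-fold and Hsc70-4 1.43-fold. These 4 of 9 were lower and none was higher, where 39.2% of all genes tested were called (22.8% lower and 16.4% higher). Libraries did not overlap for 3 of the 9, against 42.6% of all genes tested. The 4 were again called lower without any one of the 8 libraries.

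Hsp83 read 461.5, 976, 1391 and 984 CPM in control replicates 1 to 4 and 203, 167, 500 and 245 CPM in combined K36R. The groups overlapped, since combined K36R replicate 3 was above control replicate 1. All other control libraries were above every combined K36R library. The log2 fold change was -1.77 ± 0.44 (edgeR adjusted p = 0.0031). Hsc70-3 read 593, 956, 1241 and 901 CPM in the control and 243, 227, 553 and 316 CPM in combined K36R, with no overlap (-1.46 ± 0.31, edgeR adjusted p = 6.83e-04). Its combined K36R libraries were below every library of the other 5 genotypes. The same held for Hsc70-4, which read 2834, 3028, 3545 and 3287 CPM in the control and 2203, 2197, 2340 and 2119 CPM in combined K36R (-0.52 ± 0.11, edgeR adjusted p = 8.19e-04). Hsp68 was the inducible gene that fell, from 31.3, 29.5, 33.9 and 30.9 CPM to 14.8, 16.8, 13.04 and 25.2 CPM, with no overlap (-0.85 ± 0.22, edgeR adjusted p = 0.0043). In H3.3K36R (18.96 to 24.5 CPM) and H4K16R (18.4 to 27.6 CPM) Hsp68 also lay below every control library. Neither of those differences was called in the fit of all 23 libraries.

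**Figure D2:**
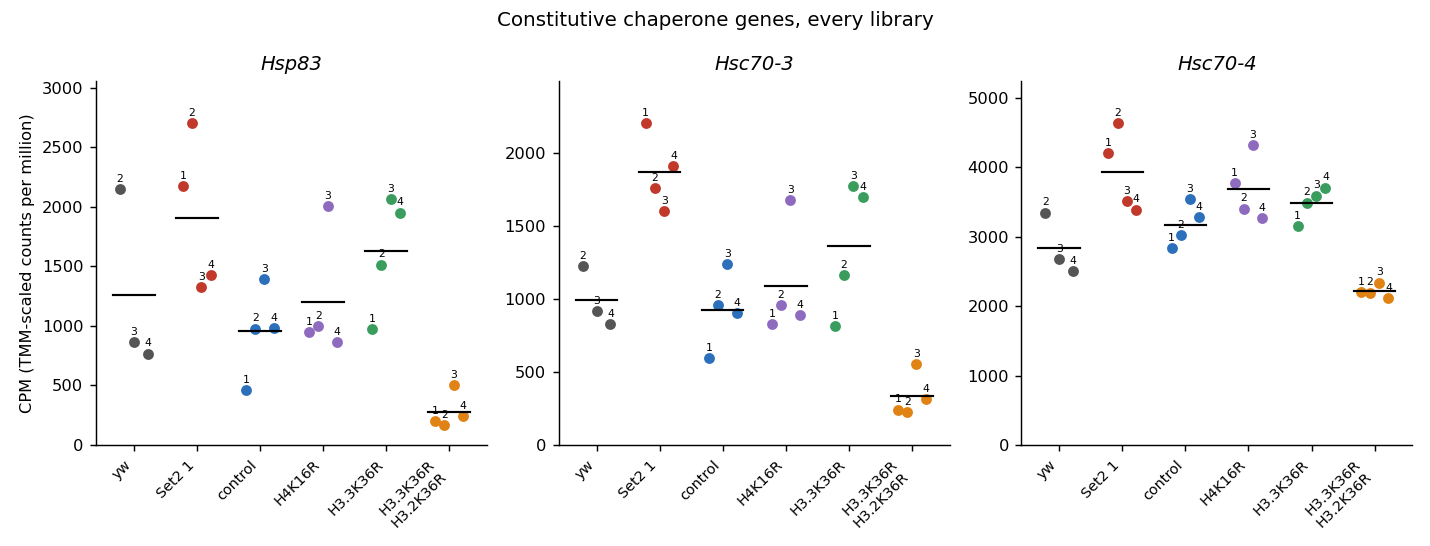
Level of Hsp83, Hsc70-3 and Hsc70-4 (CPM, linear axes from 0) in each library by genotype; points are libraries with their replicate number and bars are group means. The combined K36R libraries (H3.3K36R H3.2K36R) sit lowest for Hsc70-3 and Hsc70-4, and the Set2 mutant libraries (Set2 1) sit above yw for both.

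The remaining inducible genes stayed within the test's error in combined K36R. Hsp23 read 7.70, 9.21, 8.21 and 6.08 CPM in the control and 8.67, 9.67, 6.56 and 11.6 CPM in combined K36R, a log2 fold change of 0.22 with a 95% interval of -0.45 to 0.90. Hsp26 read 6.18, 8.39, 6.07 and 6.96 CPM in the control and 7.001, 9.47, 9.68 and 10.6 CPM in combined K36R (0.41, -0.35 to 1.17). Both genes had overlapping groups. Hsp27 was at 0.06 (-0.36 to 0.48) and Hsp70Ba at 0.68 (-0.22 to 1.57). Hsp70Aa read 0.863, 0.850, 0.519 and 0.601 CPM in the control and 1.46, 1.65, 1.36 and 0.775 CPM in combined K36R. Its change of 0.89 (-0.10 to 1.88) was not called in the fit of all 23 libraries. With only the 2 compared groups in the fit, Hsp70Aa (0.90, edgeR adjusted p = 0.0259) and Hsp26 (0.42, 0.0411) were called higher. Of the 6 Hsp70 copies 1 was called in the fit of all libraries, Hsp70Bc, on 12 to 35 counts a library in the control and 58 to 122 in combined K36R (2.29 ± 0.84, edgeR adjusted p = 0.0356).

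**Figure D3:**
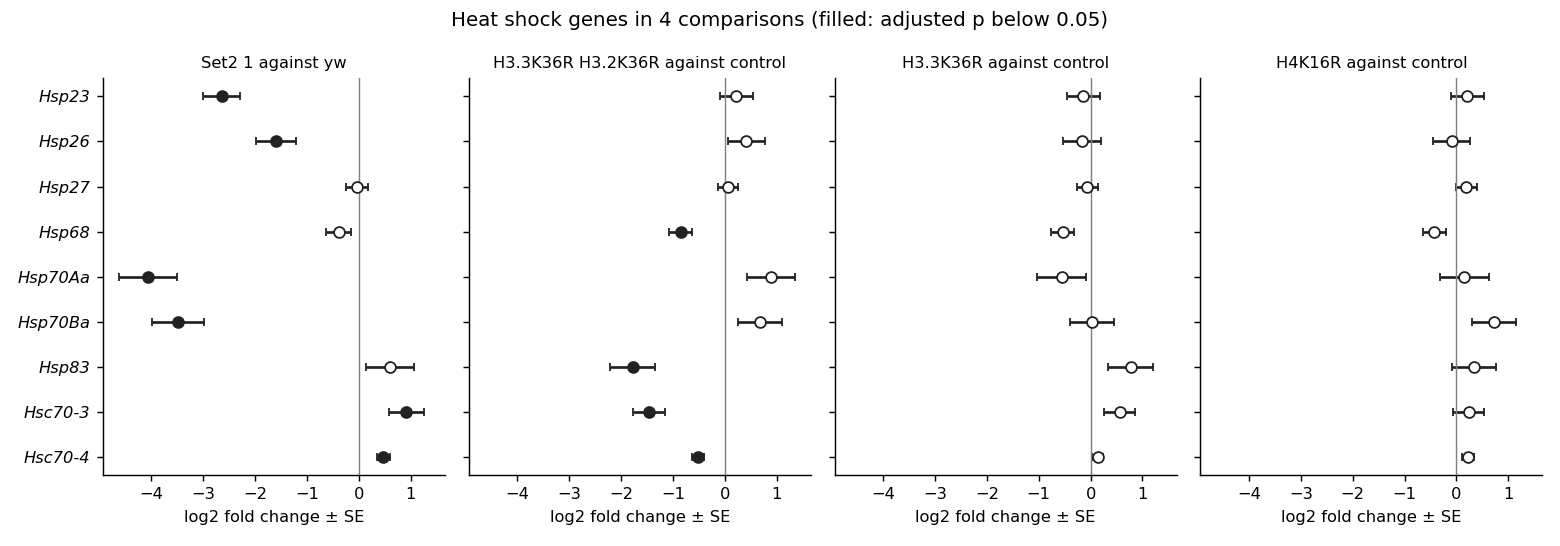
Log2 fold change with its SE for the 9 tested heat shock genes in 4 comparisons; filled points have an adjusted p below 0.05. Falls of Hsp23, Hsp26, Hsp70Aa and Hsp70Ba were called in the Set2 mutant, and falls of Hsp68, Hsp83, Hsc70-3 and Hsc70-4 in combined K36R.

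The fat body markers were called lower for 4 of 4 genes in combined K36R (sums as above), and the midgut markers for 3 of 4, with sums of 1730 to 2204 CPM against 3584 to 4259 CPM in the control. The fourth midgut marker, alphaTry, stood at 685 to 864 CPM in combined K36R against 445 to 631 CPM in the control (0.47 ± 0.19, edgeR adjusted p = 0.0578), and was called higher with RLE scaling and with DESeq2. The muscle markers were called lower for 3 of 4, or 2 of 4 with RLE scaling or DESeq2, with sums of 10430 to 12500 against 11660 to 15730 CPM. None of these markers was at 0. Their part in the falls of the chaperones was not tested.

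Among the wider lists most calls were falls. Of the 75 listed genes 38 were lower and 12 higher in combined K36R, where 22.8% of all genes tested were lower and 16.4% higher. The median log2 fold change of the 75 was -0.50 against -0.02 over all genes tested. All 8 TRiC subunits were lower (median -1.20), led by CCT5 at -1.44 ± 0.24 and CCT7 at -1.33 ± 0.23. Of the 12 co-chaperones 8 were lower and 1 higher, with Stip1 at -1.33 ± 0.28 and mora (CHORD), an Hsp90 partner, at -0.89 ± 0.20. The higher one was STUB1 (0.27 ± 0.08), a ubiquitin ligase that works on chaperone clients. Mitochondrial chaperones had 5 of 8 lower and none higher, among them CG11267 (-1.65 ± 0.27), the Hsp10 co-chaperonin, and its partner Hsp60A (-1.63 ± 0.27). The Hsp60 relative Hsp60C was also called lower, on 20 to 41 counts a library in the control and on 0, 0, 6 and 0 counts in combined K36R. Hsp110 (-1.37 ± 0.23), Hsc70-1 (-1.31 ± 0.36) and Hsc70-5 (-1.28 ± 0.18) were lower of the 4 other Hsp70-class genes. Both Hsp90 relatives were lower, Gp93 at -1.18 ± 0.26 and Trap1 at -0.91 ± 0.15. The alpha-crystallin genes were divided, with CG7409 (-1.02 ± 0.20) and CG14207 (-0.42 ± 0.08) lower and CG13133 higher (0.60 ± 0.16).

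In the ER list 9 of 13 genes were lower, where 22.8% of all genes tested were lower. The 9 included ERp60 (-1.27 ± 0.28) and the calcium-binding lectin chaperone Calr (-1.21 ± 0.25). The only higher gene was Xbp1, the transcription factor of the unfolded protein response. Xbp1 read 408, 416, 459 and 419 CPM in the control and 839, 887, 672 and 704 CPM in combined K36R, with no overlap (0.87 ± 0.10, edgeR adjusted p = 7.46e-07). Its rise ran opposite to the falls of BiP (Hsc70-3) and of the 9 lower genes of the list. Hsf (0.10 ± 0.06), lncRNA:Hsromega (-0.11 ± 0.21) and DnaJ-1 (-0.38 ± 0.16) were not called. Of the 13 ecdysone-response genes 8 were higher and none lower, where 16.4% of all genes tested were higher. Eip74EF was at 1.78 ± 0.19 and Eip93F at 1.62 ± 0.51.

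**Figure D4:**
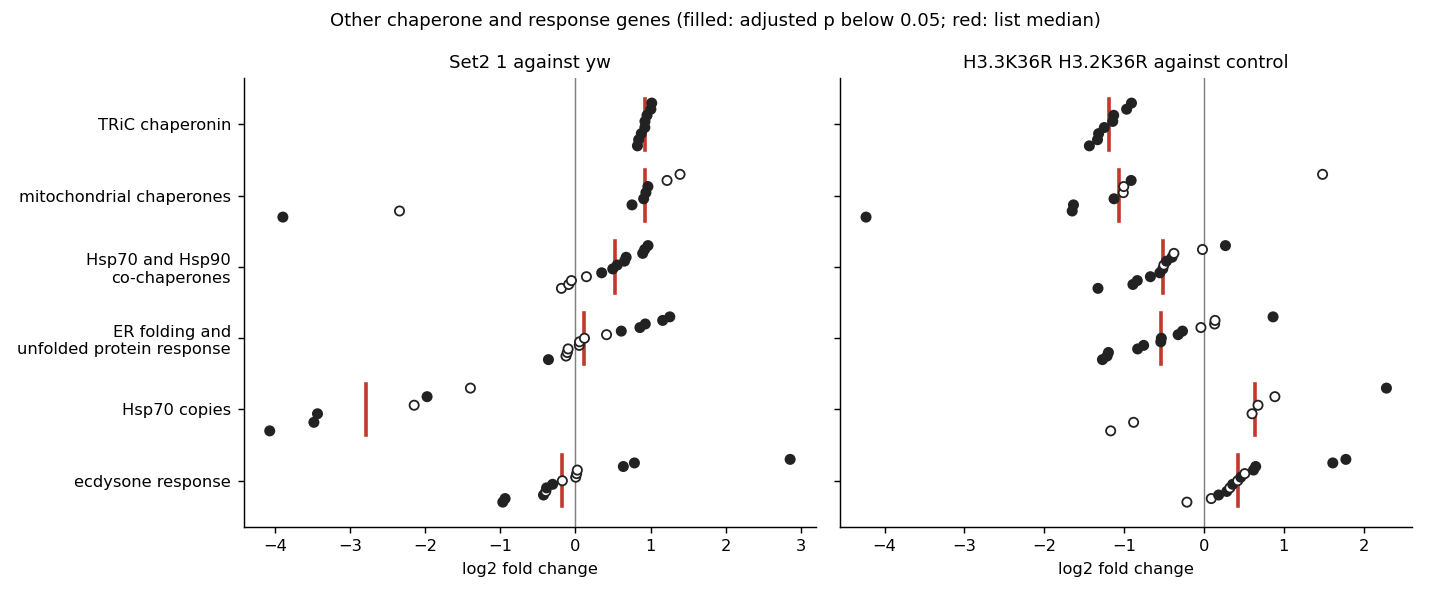
Log2 fold change of the genes of 6 chaperone and response lists in the Set2 mutant against yw (left) and in combined K36R against the histone control (right); filled points have an adjusted p below 0.05 and red bars are list medians. The TRiC subunits lie to the right in the Set2 mutant and to the left in combined K36R, and the Hsp70 copies lie to the left in the Set2 mutant.

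H3.3K36R alone had no called heat shock gene against the histone control, where 1.96% of all genes tested were called (0.947% higher and 1.02% lower). Libraries did not overlap for 1 of the 9, against 11% of all genes tested. With edgeR 1 of the 9 had an unadjusted p below 0.05, as with DESeq2. In edgeR that gene was Hsp68, which read 18.96, 20.8, 22.6 and 24.5 CPM in H3.3K36R, below every control library (-0.53, 95% interval -1.002 to -0.064, edgeR adjusted p = 0.19). With only the 2 compared groups in the fit it was called (-0.56, adjusted p = 0.00907). Hsp83 read 976, 1514, 2063 and 1950 CPM in H3.3K36R (0.77, -0.13 to 1.67), and Hsc70-3 812, 1165, 1771 and 1697 CPM (0.56, -0.07 to 1.195). For both, replicate 1 lay within the control range and replicates 3 and 4 above it. The Osiris sums of the same 4 libraries were 6.24, 14.4, 57.4 and 178 CPM, and those of control replicates 1 to 4 were 6.62, 5.81, 178 and 7.91 CPM. Control replicate 3 was also the highest control library for Hsp83 and Hsc70-3. The part of this in the levels was not tested. The log2 fold changes of the small heat shock genes and Hsp70Ba lay between -0.16 and 0.03, and Hsp70Aa was at -0.56 ± 0.47. Of the 75 listed genes 1 was called, Ire1 (-0.39 ± 0.07), while 32 had an unadjusted p below 0.05. The share of all genes tested below that unadjusted threshold is not given here. No shift of the lists is therefore read from the 32.

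H4K16R also had no called heat shock gene, where 1.31% of all genes tested were called (0.278% higher and 1.03% lower). Libraries did not overlap for 1 of the 9, Hsp68, against 8.38% of all genes tested. No gene of the 9 had an unadjusted p below 0.05 in edgeR, and 1 had in DESeq2. The 95% intervals reached from -0.90 at the lower end, for Hsp68, to 1.62 at the upper end, for Hsp70Ba. Hsp68 read 22.6, 27.6, 18.4 and 24.7 CPM in H4K16R, below every control library (-0.43 ± 0.22, edgeR adjusted p = 0.375). Hsp83 read 949, 999, 2006 and 864 CPM and Hsc70-3 826, 956, 1677 and 892 CPM in H4K16R replicates 1 to 4. Replicate 3, the library with the high Osiris sum, was the highest for both. Without it the log2 fold changes of Hsp83 and Hsc70-3 against the control passed from 0.34 to -0.053 and from 0.24 to -0.081.

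Set against the other histone mutants directly, combined K36R was again lower in the chaperones made without stress. Against H3.3K36R alone 4 of 9 genes were called, where 47.7% of all genes tested were called (28% lower and 19.7% higher), and 5 of 9 did not overlap, against 49.7% of all. Hsp83 (-2.54 ± 0.45), Hsc70-3 (-2.02 ± 0.31) and Hsc70-4 (-0.65 ± 0.11) were lower, and Hsp70Aa was higher (1.45 ± 0.48, edgeR adjusted p = 0.0162). Hsp70Aa read 0.625, 0.473, 0.469 and 0.358 CPM in H3.3K36R, with no overlap. Hsp68 was not called against H3.3K36R, also with a library left out (-0.49 to -0.15). Against H4K16R 3 of 9 were called, all lower, where 45.2% of all genes tested were called (26.8% lower and 18.3% higher). Non-overlapping libraries were found for the same number, 3 of 9, against 44.5% of all. The 3 were Hsp83 (-2.11 ± 0.44), Hsc70-3 (-1.70 ± 0.31) and Hsc70-4 (-0.74 ± 0.11). Hsp68 joined them without combined K36R replicate 4 (-0.59, edgeR adjusted p = 0.0297). The comparisons share the combined K36R libraries, so they do not count as separate evidence.

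The effects of the Set2 mutation and of combined K36R on these genes were different in a test of the difference itself, in which each effect had its own control. There 7 of 9 genes were called, where 51.5% of all genes tested were called (27.9% higher and 23.6% lower). The Set2 effect was lower than the combined K36R effect for Hsp70Aa (by -4.96 ± 0.73 on the log2 scale), Hsp70Ba (-4.16 ± 0.65), Hsp23 (-2.87 ± 0.47) and Hsp26 (-2.01 ± 0.53). It was higher for Hsc70-3 (2.38 ± 0.45), Hsp83 (2.37 ± 0.64) and Hsc70-4 (0.99 ± 0.17). The largest edgeR adjusted p among the 7 was 0.00457, for Hsp83. Hsp68 (0.46) and Hsp27 (-0.10) were not called. All 7 were called again without any one of the 15 libraries involved. The TRiC subunits differed in 8 of 8 cases (median 2.14), and Xbp1 differed in the other direction (-0.81 ± 0.14).

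The baselines, the histone control and yw, were also compared, since the effects above start from them. A single heat shock gene was called, Hsp23, lower in the histone control (-1.39 ± 0.34, edgeR adjusted p = 0.0131), where 8.08% of all genes tested were called (4% higher and 4.08% lower). None of the 9 had separate libraries, against 22.4% of all genes tested. For Hsp23, yw replicate 4 read 6.59 CPM against 6.08 to 9.21 CPM in the control. The call was lost without yw replicate 2 (-0.95, adjusted p = 0.142), without yw replicate 3 (-1.24, 0.0658) and with only the 2 groups in the fit (-1.36, 0.151). Without yw replicate 4, Hsp26 was called as well (-1.54, adjusted p = 1.58e-04). The calls of Hsp23 and Hsp26 between these baselines thus changed with the yw libraries kept. The listed genes had 4 calls, all higher in the control: Hsp70Bb and the alpha-crystallin genes CG7409, CG13133 and CG14207 (0.33 to 0.81).

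The level of the copy Hsp70Bb differed between the histone genotypes and the other genotypes. The sum of the other 5 copies overlapped between the histone control (1.67 to 2.86 CPM) and yw (1.28 to 5.66 CPM). Hsp70Bb (3R, 12505793 to 12508139) read 1.24, 1.51 and 0.785 CPM in yw and 0.564, 0.159, 0.214 and 0.263 CPM in the Set2 mutant. In the 4 histone genotypes it read 16, 11.01, 14.9 and 13.2 CPM (control), 16.5, 13.3, 27.9 and 6.58 CPM (H4K16R), 32.9, 36.2, 29.9 and 19.4 CPM (H3.3K36R) and 7.18, 8.80, 7.54 and 6.46 CPM (combined K36R). Every histone-genotype library was above every yw and Set2 mutant library. Hsp70Bb made up 17.98% to 38.0% of the summed Hsp70 level in yw, 32.7% to 76.8% in the Set2 mutant, 62.9% to 68.6% in combined K36R and 76.3% to 94.1% in the other histone genotypes.

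The white gene w, the fly eye colour gene whose mini-white form is a widely used transgene marker, was chosen after its values were seen. It followed the same division, at 0.374 to 1.29 CPM in yw and the Set2 mutant and 119 to 305 CPM in the histone genotypes. Within the histone genotypes every H3.3K36R library was above every combined K36R library for Hsp70Bb. Their w counts overlapped, at 16296 to 21909 in H3.3K36R and 19652 to 29066 in combined K36R. Whether the Hsp70Bb reads came from transgenes was not tested. The sign of the summed Hsp70 level hung on this copy. Against yw, the sum of 6 copies was higher in the histone control (1.72 ± 0.38, edgeR adjusted p = 0.00562), while the sum of 5 copies without Hsp70Bb was not called and was at -0.73 ± 0.39. From H3.3K36R to combined K36R the sum of 6 was lower (-1.47 ± 0.33, edgeR adjusted p = 0.00112) and the sum of 5 higher (0.94 ± 0.37, 0.0395). In the Set2 mutant both sums were lower, at -2.93 and -3.44.

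**Figure D5:**
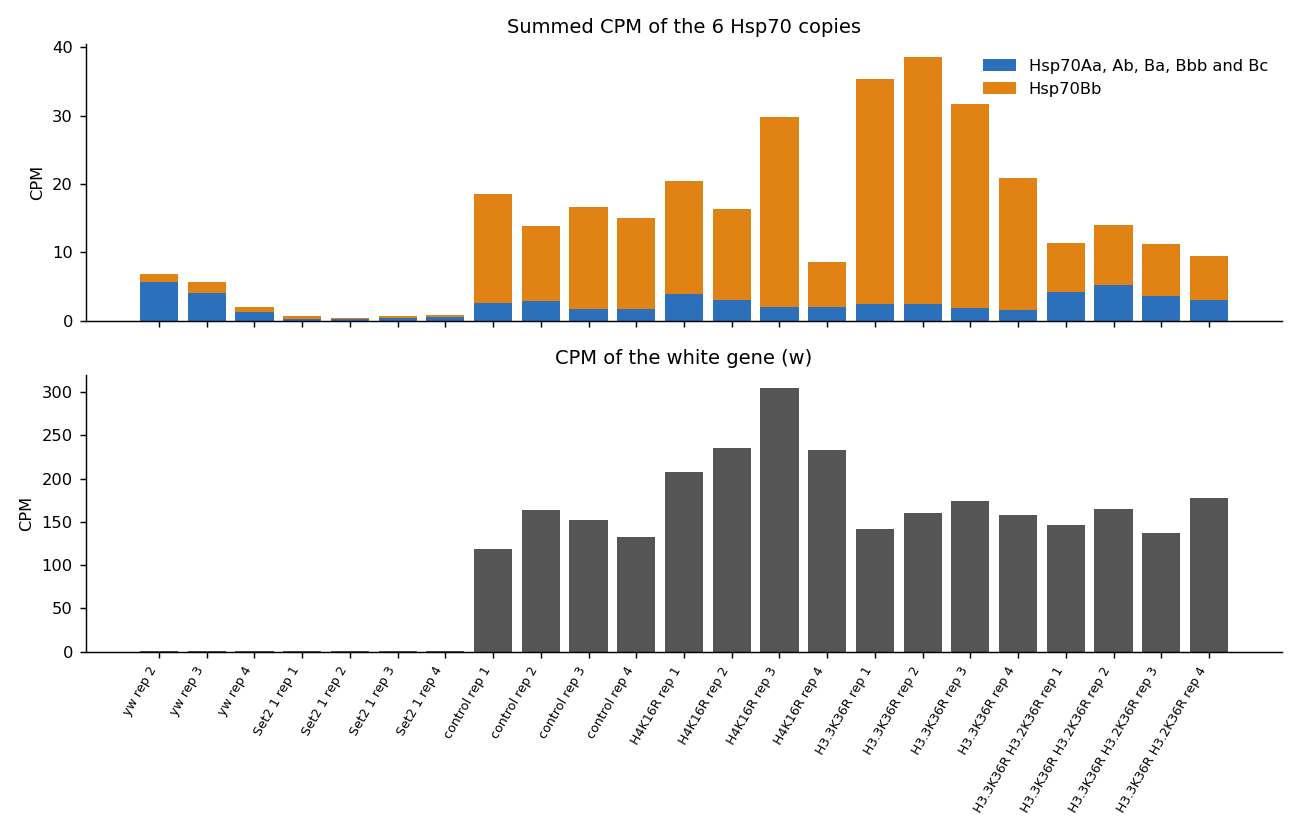
Upper panel, summed CPM of the 6 Hsp70 copies in each library, split into Hsp70Bb and the other 5 copies; lower panel, CPM of the white gene w in the same libraries (linear axes from 0). Hsp70Bb and w are high in the libraries of the 4 histone genotypes and low in yw and the Set2 mutant (Set2 1).

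Over deviations from the group means in the 23 libraries, Hsp83 went with Hsc70-3 (Pearson r = 0.894) and Hsc70-4 (0.852), and Hsp23 went with Hsp26 (0.850). Both Hsp23 and Hsp26 swung widely within yw, at 30.3, 24.4 and 6.59 CPM and at 19.6, 20.9 and 3.18 CPM in replicates 2, 3 and 4. How far their r rested on the yw libraries was not tested. In H4K16R, replicate 3 stood far above the other libraries for Hsp83 (2006 CPM) and Hsc70-3 (1677 CPM). How far the r of 0.894 rested on that library was not tested either. Hsp27 went with Hsp26 (0.685) and Hsp23 (0.517), but its r with Hsc70-3 (0.462) and Hsp83 (0.329) was above that with Hsp70Aa (0.264), Hsp70Ba (0.227) and Hsp68 (0.089). For the other 5 inducible genes r with Hsp83, Hsc70-3 and Hsc70-4 ran from -0.292 for Hsp70Ba with Hsc70-4 to 0.251 for Hsp26 with Hsc70-4. These values are descriptions, since the libraries share their depth and scaling. Likeness was also sought among the tested genes outside the heat shock genes described here. The gene most like Hsp83 among these was Stip1 (r = 0.956, Spearman 0.932, and r = 0.961 without the 2 libraries farthest from the median). For Hsc70-3 it was the ER chaperone Grp170 (0.981, 0.976 and 0.975), and for Hsc70-4 it was Droj2, an Hsp40 co-chaperone (0.966, 0.954 and 0.951). For Hsp23 it was Erasp (0.836, 0.631 and 0.556), below the r of Hsp23 with Hsp26. The likeness to Erasp rested in good part on the farthest 2 libraries. For Hsp26, Hsp27, Hsp68, Hsp70Aa and Hsp70Ba the highest r was 0.774 to 0.878.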

How the data were processed

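Each library came from a pool of 25 to 30 larvae, prepared with a Nugen total RNA kit (Ovation Universal, Drosophila) and sequenced from both ends at 100 bp, per the labels' protocols. The submitters' processing notes name STAR 2.7.2a and Subread 2.0.3, with no role or setting. Genome build, strand setting and the handling of reads with several matches are thus unknown here. The deposited values were raw counts per gene for 17606 genes in 23 libraries. Among counts of 5 to 19, 62.1% were even, against 49.9% of counts from 1000 up, for which no reason is given. Replicate 1 of yw was dropped by the submitters for an error in library construction.

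Names and positions came from BDGP6.54 by identifier, which matched 17527 identifiers (99.55%). Genes with low counts were removed by filterByExpr at a minimum count of 10 (14365 kept, 3241 removed). Counts were fitted in edgeR 4.0.16 (R 4.3.3), with TMM scaling, robust quasi-likelihood dispersions and 1 mean per group over all 23 libraries (17 residual degrees of freedom, common biological coefficient of variation 0.311). Tests were two-sided, with Benjamini-Hochberg adjustment over all genes tested. Standard errors were the log2 fold change divided by the root of the F statistic. On simulated counts for Set2 against yw (14054 genes) 72% of 1-unit and 90% of 2-unit log2 changes were recovered, and 6.4% of calls were false. Changes were simulated only in genes above a floor of expected counts, and in far fewer genes than were called in the data. These rates therefore do not describe genes on low counts. All pairs of replicates differed by more than counting error. Alternatives were RLE scaling, no filter, DESeq2 1.42.0, a replicate block, the compared groups alone, each library left out, and the Hsp70 copies summed. The 5-copy sum, and the 6-copy sum under those settings, were added after the data were seen.

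All 10 heat shock genes are named; from each wider list up to 2 called rises and 2 falls per comparison are named, with Hsf, lncRNA:Hsromega and DnaJ-1 always. Further genes (Trap1, Hsp70Bc, CG9920, Hsp60A, CG7409, CG13133, CG14207 and w) were named after their values were seen. The heat shock genes and the lists were chosen with earlier results of these data known. At these depths the spread between replicates exceeded counting error, and a few Hsp70 copies stood on under 20 counts in some libraries.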

Additional observations from a re-analysis of the deposited data

Results flagged for a closer look

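In 3 groups of 4 libraries 1 library stood far from the other 3: Hsp23 in Set2 mutant replicate 3 (4.25 CPM), Hsp83 in H4K16R replicate 3 (2006 CPM) and Hsc70-3 in the same H4K16R library (1677 CPM). There were 50 such tests, and chance marks about 1 group in 20.

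For 7 genes the effect of the Set2 mutation against yw differed from the effect of combined K36R against the histone control in the edgeR test of the difference. On the log2 scale the difference was -2.87 for Hsp23, -2.01 for Hsp26, -4.96 for Hsp70Aa, -4.16 for Hsp70Ba, 2.37 for Hsp83, 2.38 for Hsc70-3 and 0.99 for Hsc70-4. For 3 genes the effects of combined K36R and of H4K16R, which share the histone control, differed when the mutants were set against each other directly: -2.11 for Hsp83, -1.70 for Hsc70-3 and -0.74 for Hsc70-4.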

How the results depend on the processing

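The called single heat shock genes were again called in the same direction in 237 refits with a library left out and lost the call in 5, and under other settings in 124 and 1. Calls lost or gained are as follows, and their cause was not tested. With only the compared groups in the fit, the number called rose from 0 to 1 in H3.3K36R against control and fell from 1 to 0 in control against yw, and Hsp26 was called in combined K36R against H3.3K36R (0.60). In control against yw 2 were called with DESeq2 (Hsp26 at -1.04, adjusted p = 0.0436) or with the Hsp70 copies summed, and 0 to 2 with a library left out, where Hsp23 ran from -1.80 to -0.95 and Hsp26 from -1.54 to -0.73. In the Set2 mutant 5 or 6 genes were called with a library left out, and Hsc70-3 ran from 0.79 to 1.11. Hsp68 in combined K36R against H4K16R ran from -0.59 to -0.25.

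The summed Hsp70 level changed sign with the copies counted. For combined K36R against control (-0.48) it was 0.89 for Hsp70Aa, 0.68 for Hsp70Ba and 0.84 for 5 copies without Hsp70Bb. For H3.3K36R against control (0.98) it was -0.56 for Hsp70Aa and -0.10 for 5 copies. For combined K36R against H3.3K36R (-1.47) it was 1.45, 0.64 and 0.94 for Hsp70Aa, Hsp70Ba and 5 copies, and for control against yw (1.72) it was -0.98, -0.85 and -0.73. For combined K36R against H4K16R (-0.71) it was 0.74 for Hsp70Aa and 0.55 for 5 copies. With only the compared groups, the sum was called at -0.47 in combined K36R and at 0.96 in H3.3K36R, both against control. The 5-copy sum leaves out the copy that holds most reads in the histone genotypes.

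Values near 0 changed sign without being called. With RLE and DESeq2, Hsp70Ba was at -0.0037 and -0.0025 in H3.3K36R against control and at 0.0107 and 0.0106 in combined K36R against H4K16R. With a library left out, Hsp27 ran from -0.29 to 0.35 in the Set2 mutant, from -0.079 to 0.17 in combined K36R, from -0.12 to 0.50 in control against yw and from -0.34 to 0.29 in the difference of effects. Hsp70Ba ran from -0.19 to 0.20 in H3.3K36R and from -0.21 to 0.094 in combined K36R against H4K16R. In H4K16R, Hsp70Aa ran from -0.16 to 0.29, Hsp83 from -0.053 to 0.52, Hsc70-3 from -0.081 to 0.36, Hsp26 from -0.37 to 0.044 and the summed copies from -0.12 to 0.47. In control against yw, Hsp83 ran from -0.65 to 0.26 and Hsc70-3 from -0.22 to 0.12. In combined K36R against H4K16R, Hsp23 ran from -0.10 to 0.20 and the summed copies from -0.95 to -0.35, called without H4K16R replicate 4.

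Same-numbered libraries had correlations of -0.0372 to 0.432, and in no comparison were all above 0.1, so the samples were not taken as paired. In H4K16R against control 3 of 4 were above it. Between 2 of 6 and 6 of 8 libraries a comparison correlated best with the library of their own number, a hint from the data and not the design. The replicate block left the number of called genes as it was in all 8 comparisons, and moved Hsp27 in the Set2 mutant to 0.034. Hsp70Aa and Hsp70Ba stood on as few as 2 counts in a Set2 mutant library, while in yw Hsp70Aa varied from 36 to 267 counts. What depth alone limits was not tested.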
